A study of Homo sapiens with 4 samples.

Results

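The nuclear lamina and the LINC complex were followed through 10 genes (LMNA, LMNB1, LMNB2, LBR, EMD, TMPO, LEMD3, SUN1, SUN2 and BANF1), taken by symbol from the 25027 symbols or identifiers of the gene tables. All 10 had at least 1 row, 28 transcript rows in total, and all 10 were among the 11631 genes that averaged at least 1 FPKM across the libraries, called tested genes here. FPKM is the number of fragments scaled by transcript length and by all mapped fragments, a scale per length on which genes can be compared within a library. The cells were RPE1, a telomerase-immortalised line derived from human retinal pigment epithelium. They received 10 nM of a Stealth siRNA duplex against SAF-A, the nuclear matrix protein encoded by HNRNPU, or of a negative control Stealth siRNA, both with Lipofectamine RNAi MAX, and total RNA depleted of ribosomal RNA was sequenced after 24 h or 48 h. Each of the 4 groups was a single library from 1 cell line, and SAF-A was targeted with 1 duplex. No value below was replicated and none has a p-value. Values without a library name are given in library order, that is control and then SAF-A siRNA at 24 h, followed by the same pair at 48 h.

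The lamina is a meshwork of intermediate filament proteins under the inner nuclear membrane, built from A-type lamins (lamin A and lamin C, both from LMNA) and B-type lamins (LMNB1, LMNB2). Inner membrane proteins such as the lamin B receptor, emerin and the LAP2 proteins tie it to chromatin, partly through the small DNA-binding protein BAF. SUN proteins cross the inner membrane and bind KASH-domain nesprins in the outer membrane, and this LINC bridge couples the nucleus to the cytoskeleton.

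The SAF-A 48 h library stood apart before any gene was considered. The deposited values imply 1216740 mapped reads for it, against 28083822 to 30701282 for the others, so 1 FPKM over a 2-kb transcript was worth about 2.19 reads there and 50.5 to 55.2 elsewhere. Every comparison that includes it carries that counting error, and only the 24 h comparison and the control time course are free of it. HNRNPU was at 91.2, 10.4, 84.6 and 9.24 FPKM in library order, which is 11.4% and 10.9% of the control of the same time. Of 10 markers of differentiated retinal pigment epithelium 8 were under 1 FPKM in every library, RPE65 at 0 throughout. Of 5 genes typical of the line, VIM was 2-fold higher with SAF-A siRNA at 48 h (1590 and 3310 FPKM, log2 difference 1.06) and CDH2 and FN1 were under 2-fold (0.66 and -0.12). KRT8 was listed at 63.9 and 15.4 FPKM and KRT18 at 229 and 23.3 FPKM in that pair (-1.98 and -3.24), with failed estimates in the control. These keratin and vimentin differences fall in the library that carries the lamina differences below. All 5 blood and all 3 endothelial markers stayed under 1 FPKM. The proliferation genes MKI67, TOP2A, CCNA2, BUB1, PLK1, AURKB, PCNA, MCM2 and MCM5 summed to 522 to 609 FPKM in the other 3 libraries and to 344 FPKM in the SAF-A 48 h library. The part of these markers in the results below was not tested.

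The coding ends of the farnesylated lamins are shown because the LMNA transcripts turned out to move unequally. Lamin A, LMNB1 and LMNB2 are made with a CaaX box at their end, the signal for farnesylation, and lamin C is not. B-type lamins keep the farnesyl group, whereas prelamin A loses its farnesylated end when it matures to lamin A. Below are the last 12 coding bases in capitals and the stop codon in lower case, read 5′ to 3′ from GRCh37 with the coding ends of GENCODE release 44.
Lamin A (LMNA, chr1:156108883-156108897, plus strand): TGCAGCATCATGtaa
LMNB1 (chr5:126171942-126171956, plus strand): TGTGCAATTATGtaa
LMNB2 (chr19:2430909-2430923, minus strand): TGCTACGTGATGtga

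LMNA (chromosome 1, 156052337 to 156109880, 7 deposited transcripts) was the most abundant of the 10 genes in every library, and its level was much higher with SAF-A siRNA at 48 h. It was at 306 FPKM (deposited 95% interval 290 to 322) in the control and 297 FPKM (282 to 313) in the SAF-A library at 24 h. At 48 h it was at 296 FPKM (280 to 312) with control siRNA and 744 FPKM (668 to 822) with SAF-A siRNA. The first 3 libraries have overlapping intervals, and the SAF-A 48 h library lies above them all. Changes are given as differences in log2(FPKM + 1), with the most extreme values that the interval bounds allow, and a gene counts as changed from a 2-fold difference on. LMNA differed by -0.04 (-0.19 to 0.11) at 24 h and rose by 1.33 (1.10 to 1.55) at 48 h, or 2.51-fold in FPKM. The 48 h value rests on about 1825 estimated reads, so counting error is small for this gene. With libraries scaled to equal sums over genes of at least 300 nt the rise was 1.09.

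The LMNA rise was uneven across its transcripts. Transcripts with the lamin C end held 187, 162 and 190 FPKM in the first 3 libraries, in library order, and 442 FPKM in the SAF-A 48 h library. Transcripts with the lamin A end held 97.2, 115 and 90.5 FPKM in those 3 libraries and 96.0 FPKM in the SAF-A 48 h library. NM_001257374, which starts downstream of the lamin A and C start and carries neither coding end, went from 22.3, 20.3 and 15.3 FPKM to 206 FPKM (180 to 232). The lamin A share of LMNA was thus 31.7% (29.5 to 34.0) in the control and 38.6% (36.2 to 41.1) in the SAF-A library at 24 h. At 48 h it was 30.6% (28.4 to 32.9) with control and 12.9% (10.4 to 15.8) with SAF-A siRNA. This order depends on NM_001257374, which shares the final position of the lamin A transcript: counted by that shared end, the share was 35.8% with control and 40.5% with SAF-A siRNA at 48 h. Between NM_170707 (lamin A) and NM_005572 (lamin C) alone the lamin A share was 32.6% and 17.8%. These transcripts share exons and the single-end reads were 50 bases long, so the split is a model estimate.

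**Figure D1:**
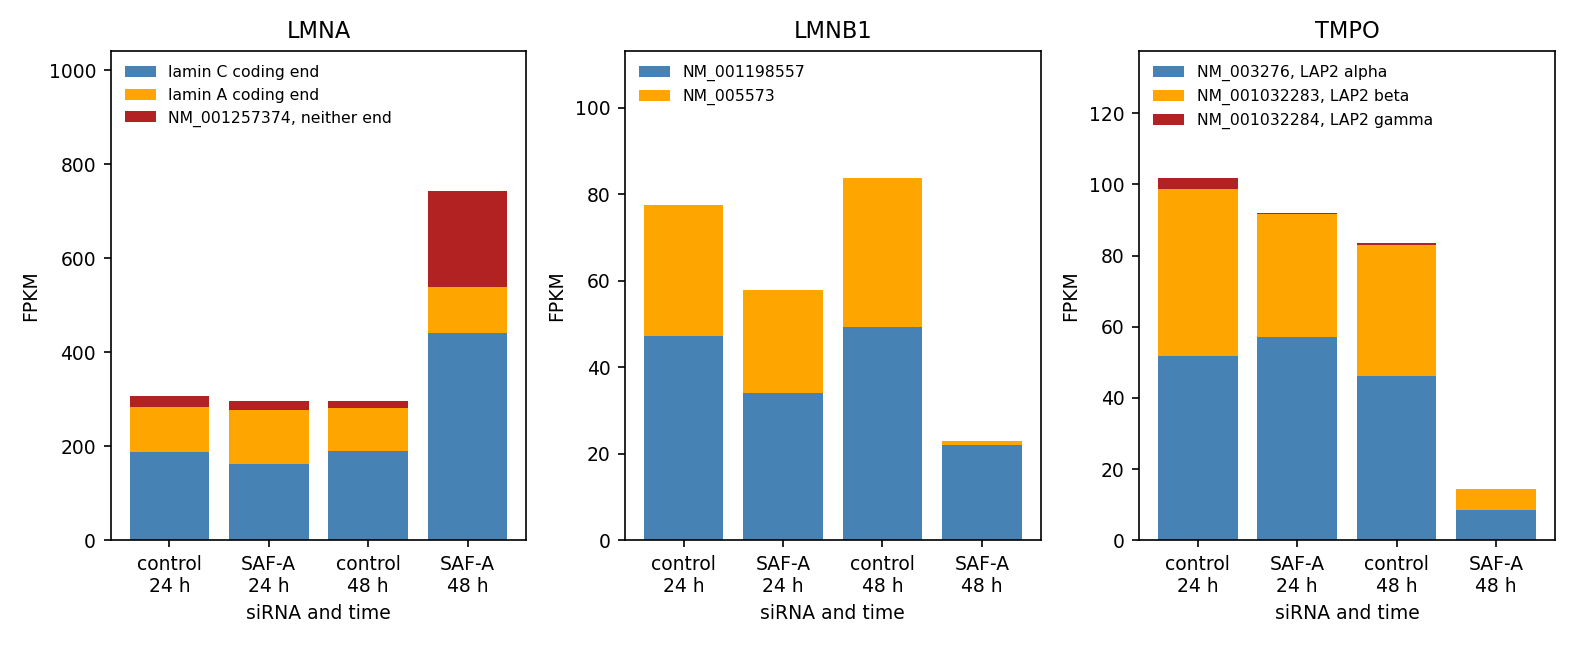
FPKM (linear axis) of LMNA by coding end, and of LMNB1 and TMPO by transcript, in each of the 4 libraries; stacked bars add up to the gene. LMNA reaches 744 FPKM in the SAF-A 48 h library, where NM_001257374 holds 206 FPKM, while LMNB1 and TMPO fall to 22.9 and 14.4 FPKM.

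LMNB1 (chromosome 5, 126112315 to 126172712), the B-type lamin that is typically high in dividing cells, moved the other way. It was at 77.4 FPKM (72.6 to 82.2) in the control and 57.9 FPKM (54.1 to 61.7) in the SAF-A library at 24 h. At 48 h it was at 83.8 FPKM (78.8 to 88.9) in the control and 22.9 FPKM (15.9 to 30.3) in the SAF-A library, the last from about 58 reads. Both SAF-A libraries lie below both controls, with no overlap of intervals. The log2 difference at 24 h was -0.41 (-0.60 to -0.23), under 2-fold but lower than in all but 5.16% of tested genes. At 48 h LMNB1 fell by 1.83 on the log2 scale, with bounds of -2.41 and -1.35. The control libraries differed with time by 0.11.

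LMNB1 has 2 deposited transcripts that differ in the first exon. The short first exon of NM_001198557 lies inside the long one of NM_005573. NM_005573 was at 30.2, 23.9 and 34.6 FPKM in the first 3 libraries and at 0.748 FPKM (0 to 1.97) in the SAF-A 48 h library. NM_001198557 was at 47.2, 34.0 and 49.2 FPKM and then at 22.1 FPKM (15.9 to 28.4). Its share of LMNB1 was 58.7% to 61.0% in the first 3 libraries and 96.7% in the SAF-A 48 h library. LMNB1 and LMNA thus both had a larger share assigned there to a transcript that lacks most (NM_001198557, about 55 reads) or all (NM_001257374, about 466 reads) of the first exon of NM_005573 or of NM_170707. This was not common to all genes with several starts. The LBR transcript with the upstream start (NM_194442) held 59.0% with control and 99.1% with SAF-A siRNA at 48 h. In SUN1 and SUN2 a transcript with a downstream start gained, NM_001130965 from 45.9% to 100.0% and NM_001199580 from 13.1% to 37.6%.

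LMNB2 (chromosome 19, 2428163 to 2456966, minus strand, 1 transcript), the second B-type lamin gene, differed more with time than with siRNA. It was at 46.0 FPKM (44.8 to 47.3) in the control and 51.4 FPKM (50.2 to 52.6) in the SAF-A library at 24 h, and at 30.7 FPKM (29.7 to 31.7) and 25.9 FPKM (21.5 to 30.3) at 48 h. Both 48 h libraries lie below both 24 h libraries. The log2 difference with time was -0.57 (-0.65 to -0.49) under control and -0.96 (-1.25 to -0.71) under SAF-A siRNA. Between siRNAs it was 0.16 (0.08 to 0.23) at 24 h, which became -0.03 after rescaling to TPM, and -0.24 (-0.54 to 0.03) at 48 h.

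The ratio of A-type to B-type lamin mRNA sums up these opposite moves and, being taken within a library, does not depend on scaling a library by a single factor. LMNA over the sum of LMNB1 and LMNB2 was 2.48 (2.24 to 2.74) in the control 24 h, 2.72 (2.46 to 3.00) in the SAF-A 24 h and 2.58 (2.32 to 2.87) in the control 48 h library. It was 15.2 (11.0 to 22.0) in the SAF-A 48 h library, outside the range of the other 3. LMNA here counts all its transcripts, including NM_001257374, which carries neither the lamin A nor the lamin C coding end. That transcript held 27.6% of LMNA in the SAF-A 48 h library and 5.17% to 7.29% in the other 3. Against LMNB1 alone the ratios were 3.96, 5.14, 3.53 and 32.5 in the same order, and there the SAF-A 24 h library (4.57 to 5.78) also lay above both controls (3.53 to 4.44 and 3.15 to 3.96). LMNB1 divided by LMNB2 was 1.68, 1.13 and 2.73 in the first 3 libraries. In the SAF-A 48 h library it was 0.883, with overlapping intervals of the 2 genes.

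**Figure D2:**
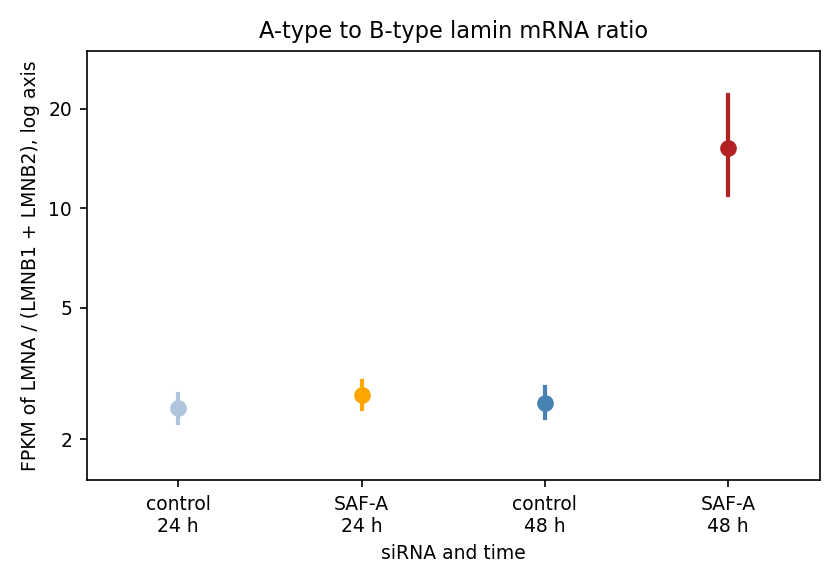
FPKM of LMNA divided by the sum of LMNB1 and LMNB2 (log axis) in each library; bars show the extremes that the deposited 95% intervals allow. The SAF-A 48 h library sits at 15.2 and the other 3 between 2.48 and 2.72.

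TMPO (chromosome 12, 98909351 to 98944157), which encodes the LAP2 proteins, had the largest difference of the 10 genes. LAP2 alpha is a soluble nucleoplasmic partner of A-type lamins, and LAP2 beta sits in the inner membrane and binds B-type lamins. TMPO was at 102 FPKM (96.3 to 107) in the control and 92.0 FPKM (87.2 to 96.7) in the SAF-A library at 24 h. At 48 h it was at 83.5 FPKM (79.0 to 88.0) in the control and 14.4 FPKM (8.75 to 20.4) in the SAF-A library, from about 64 reads. The first 3 libraries are within 79.0 and 107 FPKM by their intervals, and the SAF-A 48 h library lies far below. The log2 difference was -0.15 (-0.30 to 0.01) at 24 h, and at 48 h TMPO fell by 2.46, with bounds of -3.19 and -1.90.

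The alpha and beta forms part at the exon shown here, the last of 4 in the alpha transcript and 2812 bases long, whose first bases are in capitals after the intron in lower case.
TMPO alpha exon start (chr12:98926586-98926615, plus strand, GRCh37): cttttgcctctacagGAAAGAAGAAAGAAC

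The alpha share of TMPO was 50.8% (48.1 to 53.6) with control and 62.0% (59.5 to 64.5) with SAF-A siRNA at 24 h, with no overlap. At 48 h it was 55.3% (52.6 to 58.0) with control and 60.0% (38.6 to 78.0) with SAF-A siRNA, where the interval spans all other values. At 24 h alpha (NM_003276) was at 51.8 and 57.0 FPKM and beta (NM_001032283) at 46.9 and 34.7 FPKM with control and SAF-A siRNA. At 48 h both forms were low with SAF-A siRNA, alpha at 8.61 against 46.1 FPKM and beta at 5.75 against 36.9 FPKM in the control. LAP2 gamma (NM_001032284), a shorter membrane form, was at 3.18 FPKM in the control 24 h library and under 0.5 FPKM in the others. A 481-base overlap with exons of TMPO-AS1 on the opposite strand (0.314 to 1.05 FPKM) touches a small part of the 6993 exon bases of TMPO.

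BANF1 (chromosome 11, 65769550 to 65771617), the gene of BAF, was at 14.9 FPKM (12.8 to 17.0) in the control and 15.9 FPKM (14.2 to 17.7) in the SAF-A library at 24 h. At 48 h it was at 17.9 FPKM (15.7 to 20.2) in the control and 6.24 FPKM (1.02 to 13.2) in the SAF-A library. BAF bridges DNA and LEM-domain proteins and gathers chromosomes into one nucleus after mitosis. The log2 difference was 0.09 (-0.24 to 0.43) at 24 h and -1.39 (-3.39 to -0.23) at 48 h. Although the 48 h intervals do not overlap and the gene passes the 2-fold line, the SAF-A value rests on about 7 reads. BANF1 also shares 88 of its 1152 exon bases with EIF1AD on the opposite strand (7.66 to 11.9 FPKM), and whether strand was used in counting is not given in the sources used here.

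EMD and LEMD3 encode the LEM-domain proteins emerin and MAN1, which bind BAF, and neither differed beyond its intervals between siRNAs. EMD (chromosome X, 153607597 to 153609883) was at 21.1, 19.3, 19.2 and 21.0 FPKM in library order. Its log2 difference was -0.12 (-0.34 to 0.09) at 24 h and 0.13 (-0.61 to 0.68) at 48 h. LEMD3 (chromosome 12, 65563351 to 65642141), the least abundant of the 10 in all but the SAF-A 48 h library, was at 8.18, 7.97, 8.65 and 6.62 FPKM in that order. Its log2 difference was -0.03 (-0.23 to 0.16) at 24 h and -0.34 (-1.49 to 0.36) at 48 h, a range too wide at about 37 reads to tell a loss of over 2-fold from no change.

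LEMD3 also shows how far the split between near-identical transcripts can be trusted. NM_014319 and NM_001167614 differ by the 3 bases in capitals at an exon start. NM_014319 held 100.0% of LEMD3 in the control 24 h library and 0.374% in the control 48 h library, although the gene totals differed little. The same holds for LBR, where NM_002296 held 99.9% and 41.0% in the 2 controls.
LEMD3 exon start (chr12:65604693-65604722, plus strand, GRCh37): ccttccttgatagTAGaaaacccctttggt

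LBR (chromosome 1, 225589204 to 225616557, minus strand), the lamin B receptor, joins B-type lamins and heterochromatin to the inner membrane and also has a sterol reductase domain. It was at 24.0 FPKM (22.6 to 25.4) with control siRNA at 24 h, and at 20.7 FPKM (19.0 to 22.5) in the control and 33.0 FPKM (27.0 to 39.5) in the SAF-A library at 48 h. The SAF-A 24 h value is listed as 43.5 FPKM, but the status of both LBR rows there is FAIL and the listed bounds (0 to 2.31) do not contain it. Taken as listed it gives a log2 difference of 0.83 at 24 h, with no usable interval. At 48 h the log2 difference was 0.65 (0.25 to 1.02), or 1.59-fold, with intervals that did not overlap but under the 2-fold line.

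SUN1 and SUN2, the inner membrane side of the LINC complex, had overlapping intervals between siRNAs at 24 h. SUN1 (chromosome 7, 855194 to 914557) was at 18.7 FPKM (16.3 to 21.2) in the control and 17.9 FPKM (15.9 to 20.0) in the SAF-A library at 24 h, and at 19.8 FPKM (17.1 to 22.5) and 32.8 FPKM (27.2 to 42.6) at 48 h. Only the SAF-A 48 h library lies apart, with a log2 difference of 0.70 (0.26 to 1.27), or 1.66-fold, against -0.06 (-0.39 to 0.28) at 24 h. SUN2 (chromosome 22, 39130719 to 39152024, minus strand) was at 27.4, 26.0, 26.2 and 33.6 FPKM in library order, the last with an interval of 24.0 to 43.5 that covers the others. Its log2 difference was -0.08 (-0.29 to 0.14) at 24 h and 0.34 (-0.22 to 0.82) at 48 h. The quotient of SUN1 and SUN2 was 0.684 (0.552 to 0.837), 0.689 (0.567 to 0.836), 0.753 (0.604 to 0.930) and 0.976 (0.625 to 1.77) in the same order. These ranges overlap, so the quotient did not differ between libraries beyond its error. By the same bounds SUN1 was below SUN2 in all but the SAF-A 48 h library.

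**Figure D3:**
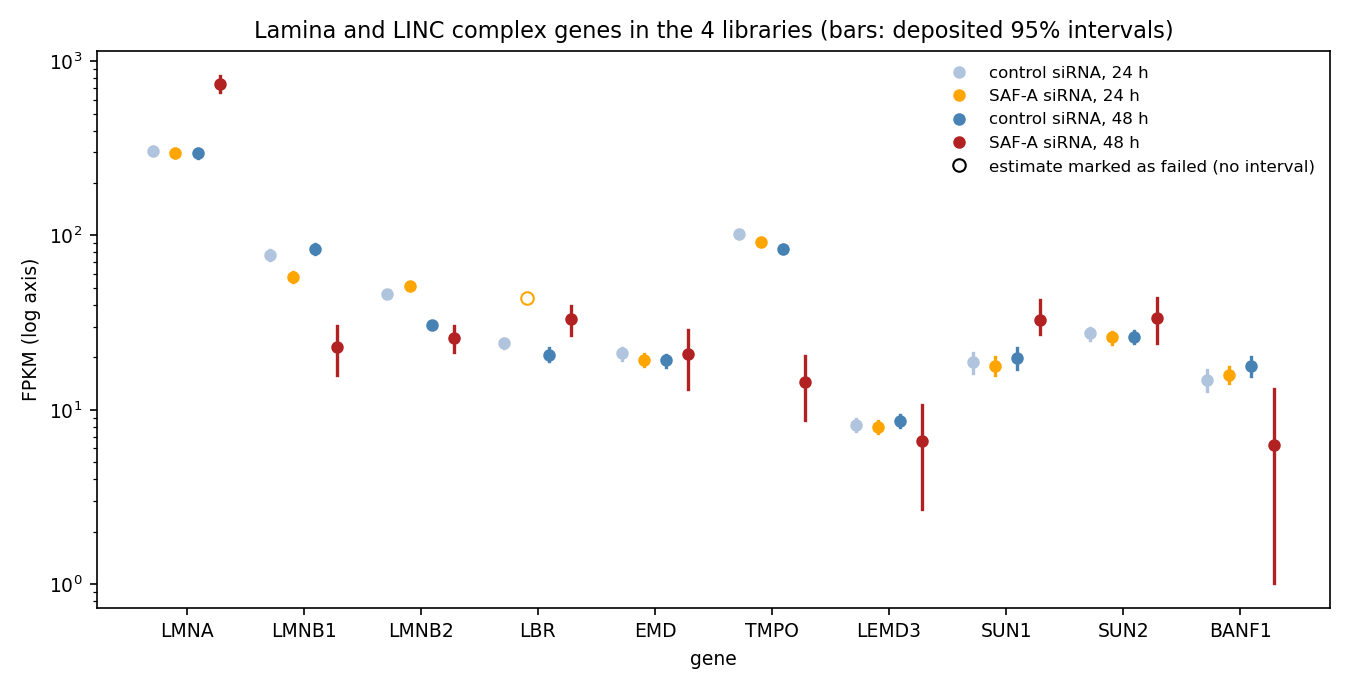
FPKM (log axis) of the 10 genes in the 4 libraries, with the deposited 95% interval as a bar; the open symbol is the LBR value marked as failed. By these intervals the SAF-A 48 h library stands above the others for LMNA and SUN1 and below them for LMNB1 and TMPO. BANF1 is also lowest there, but its interval overlaps that of the control 24 h library.

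The order of levels was alike in the other 3 libraries once the SAF-A 48 h library was set aside. LMNA came first, TMPO and LMNB1 next and then LMNB2, and LEMD3 was last. TMPO and LMNB1 could not be separated in the control 48 h library (83.5 and 83.8 FPKM). SUN1, EMD and BANF1 lay between 14.9 and 21.1 FPKM in those 3 libraries and each overlapped the next of them by level. In the SAF-A 48 h library LMNA alone was apart from its neighbour, and from SUN2 at 33.6 FPKM down to BANF1 at 6.24 FPKM every gene overlapped the next.

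Counted over the 10 genes, none was at least 2-fold higher and none lower with SAF-A siRNA at 24 h, where 1.83% and 1.25% of the 11631 tested genes were. At 48 h 1 was higher (LMNA) and 3 were lower (LMNB1, TMPO, BANF1), where 14.2% of tested genes were higher and 20.1% lower, so the counts are near the background. Among tested genes of at least 300 nt, the class of all 10, the background was 0.389% and 0.244% at 24 h and 14.3% and 18.5% at 48 h. The 10 had a median log2 difference of -0.05 at 24 h (LBR included as listed), where all tested genes had -0.06. Their median at 48 h was -0.06, where all tested genes had -0.12. Rescaling to TPM moved the median of all genes at 24 h to -0.22, and equal sums over genes of at least 300 nt moved it at 48 h to -0.32.

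**Figure D4:**
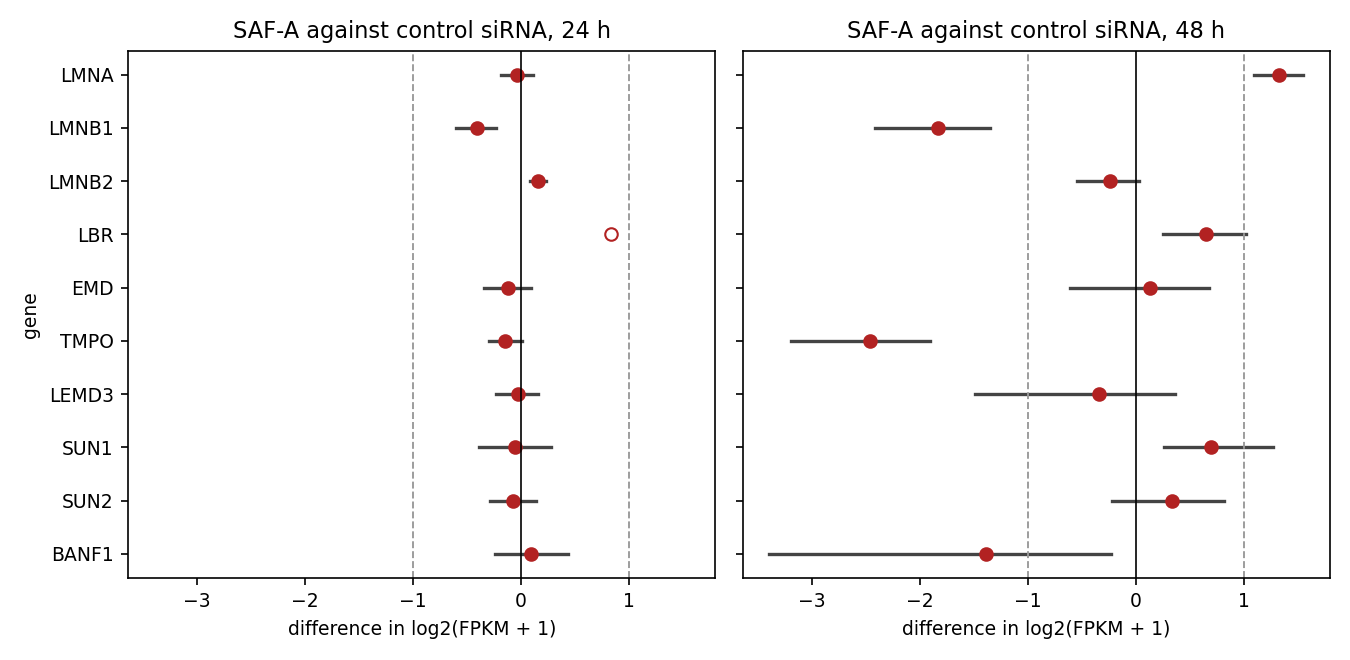
Difference in log2(FPKM + 1) between SAF-A and control siRNA for each gene at 24 h and 48 h; bars are the extremes allowed by the deposited 95% intervals and dashed lines mark 2-fold. At 24 h all 10 points lie inside the 2-fold lines, the open LBR point resting on a failed estimate, and at 48 h LMNA lies beyond the upper line and LMNB1, TMPO and BANF1 beyond the lower.

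With time alone, none of the 10 reached 2-fold between the control libraries in either direction (background 1.79% higher and 1.36% lower). LMNB2 had the largest of these differences. Between the SAF-A libraries 1 was higher at 48 h than at 24 h and 3 were lower, against 15.1% and 17.8% of tested genes, and they were the same 4 genes. This comparison shares the SAF-A 48 h library with the siRNA comparison at 48 h. LMNA differed by 1.32 (1.09 to 1.54), LMNB1 by -1.30 (-1.89 to -0.81), TMPO by -2.60 (-3.33 to -2.04) and BANF1 by -1.23 (-3.21 to -0.10).

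Related envelope genes were described as lists, by how many were at least 2-fold apart between siRNAs, with the background given above. No tested gene of the lists that follow passed the line at 24 h. Of the genes that process lamins, 4 of 5 were tested and none passed at 48 h. RCE1, the protease that cleaves the CaaX end, was at 12.3 FPKM in the control and 22.1 FPKM in the SAF-A library (log2 difference 0.80). ICMT, which methylates the cleaved end, was at 29.5 and 20.3 FPKM (-0.51).

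Of the KASH and other SUN genes only SYNE1, SYNE2 and SYNE3 were tested, which encode nesprins. Their log2 differences at 48 h were 0.57, 0.69 and 0.74, all above 0 and under 2-fold, at 1.53 to 3.64 FPKM in the 48 h libraries.

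Of 10 tested genes with other LEM-domain or inner membrane products, 3 were lower at 48 h (NEMP1, TMEM201, NRM) and none was higher, with a median of -0.37. NEMP1, an inner membrane protein, was at 14.4 FPKM in the control and 2.0 FPKM (0.198 to 3.98) in the SAF-A library. TMEM201, also called SAMP1, was at 6.30 and 0.888 FPKM (0 to 2.36), from about 4 reads.

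Of 13 genes for envelope disassembly and reassembly 2 were higher at 48 h (CHMP2A and VRK2) and 1 was lower (CDK1), with a median of -0.03. CHMP2A, an ESCRT-III subunit that helps seal the new envelope, was at 15.4 FPKM (13.5 to 17.4) in the control and 49.6 FPKM (33.9 to 67.6) in the SAF-A library. CDK1, the kinase that phosphorylates lamins at mitotic entry, was at 93.9 FPKM (88.5 to 99.4) and 34.1 FPKM (25.8 to 45.7).

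Of 6 chromatin proteins linked to the lamina, 3 were lower at 48 h (CBX1, CBX3, CBX5) and 1 was higher (HDAC3), with a median of -0.89. The CBX genes encode heterochromatin protein 1 family members, which bind LBR. CBX1 was at 75.0 FPKM (70.6 to 79.3) in the control and 28.0 FPKM (21.0 to 35.6) in the SAF-A library, and CBX5 at 24.8 FPKM (23.3 to 26.3) and 10.9 FPKM (7.85 to 14.2).

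Of 25 tested nuclear pore genes 5 were lower at 48 h and none was higher, with a median of -0.15. NUP43, a subunit of the Y-complex scaffold, was at 24.2 and 14.5 FPKM at 24 h (log2 difference -0.70) and at 26.2 and 3.23 FPKM at 48 h (-2.68, about 11 reads) with control and SAF-A siRNA. NUP62, a central channel nucleoporin, was at 24.8 FPKM (22.1 to 27.6) and 3.31 FPKM (0.367 to 8.18) at 48 h.

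Beside these stood the 9 proliferation genes, of which 6 were lower at 48 h and none was higher, with a median of -1.05, against -0.17 at 24 h. CCNA2, which encodes cyclin A2, was at 76.1 FPKM (72.3 to 79.8) in the control and 17.7 FPKM (12.8 to 22.6) in the SAF-A library, and MKI67 at 11.5 FPKM (10.7 to 12.3) and 2.07 FPKM (1.30 to 2.99). LMNB1, TMPO and CDK1 were low in the same library. In bulk RNA, fewer cells of a kind and less RNA per cell cannot be told apart.

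**Figure D5:**
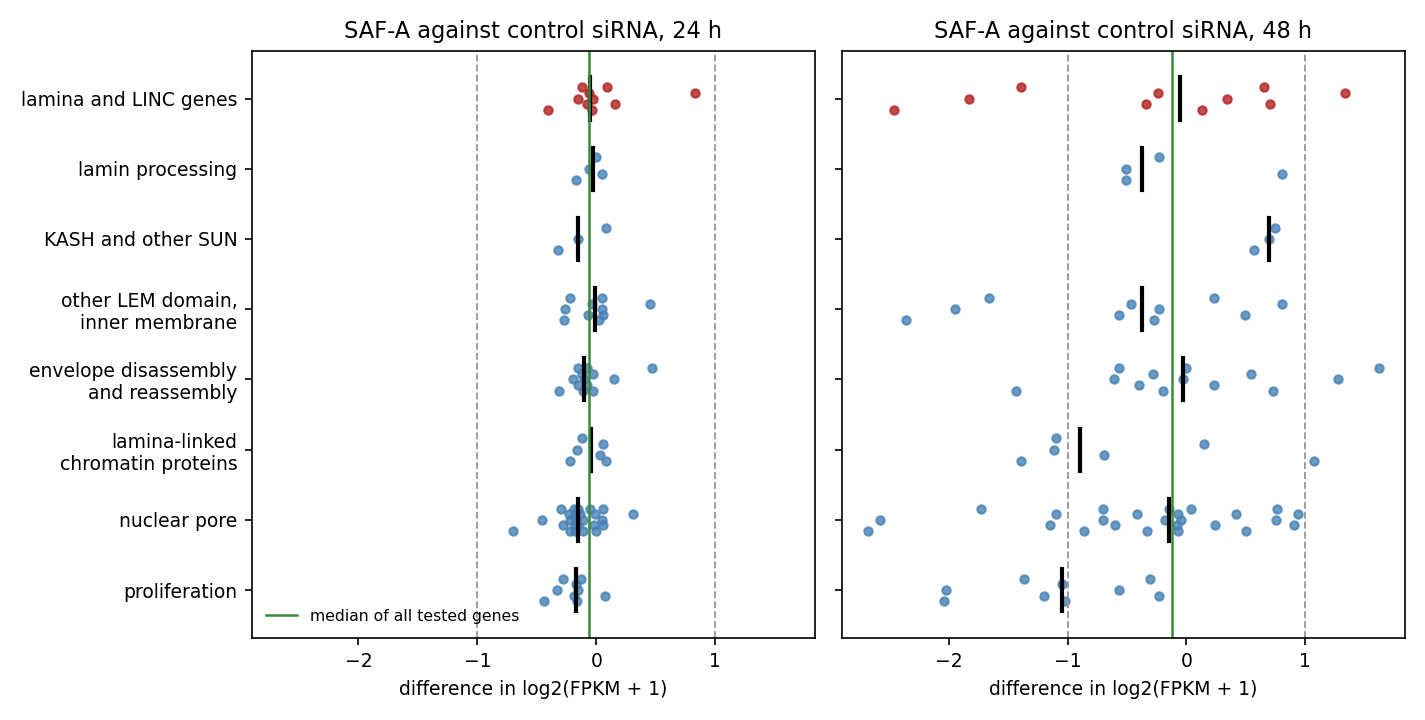
Difference in log2(FPKM + 1) between SAF-A and control siRNA for each tested gene of each list at 24 h and 48 h; short black lines are list medians, the green line is the median of all tested genes and dashed lines mark 2-fold. Points lie inside the 2-fold lines at 24 h, and at 48 h the proliferation genes have a median of -1.05.

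Likeness was sought among 7700 other genes, those averaging 5 FPKM or more and no shorter than 300 nt. Likeness to LMNA and LMNB1 was measured as the distance between log2(FPKM + 1) profiles over the 4 libraries, each centred on its mean. The nearest to LMNA were NAE1 (distance 0.039), LACTB2 (0.048) and ITGA3 (0.048). ITGA3, an integrin subunit, was at 176, 170, 165 and 410 FPKM in library order. The nearest to LMNB1 were YES1 (0.044), RBMXL1 (0.058) and TTI1 (0.059). YES1, a kinase of the Src family, was at 28.2, 21.2, 30.8 and 8.25 FPKM, the last from about 45 reads. With 4 points, of which 1 stands apart, such likeness is loose.

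Sequences near the start sites of LMNB1 and TMPO are shown because both genes fell at 48 h. The 250 bases before the deposited start are printed from GRCh37, with CCAAT or its reverse complement ATTGG in capitals.
LMNB1, start of NM_005573 (chr5:126112065-126112314, plus strand): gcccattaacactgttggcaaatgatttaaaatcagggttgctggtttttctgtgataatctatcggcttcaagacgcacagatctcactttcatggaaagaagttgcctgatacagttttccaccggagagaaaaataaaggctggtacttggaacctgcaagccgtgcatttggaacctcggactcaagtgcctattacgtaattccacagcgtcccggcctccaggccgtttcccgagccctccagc
TMPO, start of all its transcripts (chr12:98909101-98909350, plus strand): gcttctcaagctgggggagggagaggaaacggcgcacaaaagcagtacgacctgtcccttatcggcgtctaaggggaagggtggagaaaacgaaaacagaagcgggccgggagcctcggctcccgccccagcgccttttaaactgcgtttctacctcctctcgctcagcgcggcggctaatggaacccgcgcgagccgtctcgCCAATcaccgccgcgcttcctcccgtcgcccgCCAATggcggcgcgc

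The TMPO window held CCAAT at 2 positions and this LMNB1 window at none, and neither held TTTGAA or GGCGGGAA on either strand. LMNB1 has a second RefSeq window, at a start further downstream, and that one held CCAAT once, so the count for LMNB1 depends on the start chosen. The printed window belongs to the less abundant transcript. NM_005573 held 39.0% to 41.3% of LMNB1 in the first 3 libraries and 3.27% in the SAF-A 48 h library. NM_001198557, which held the larger share in every library, also starts further downstream, and the window before its deposited start is not printed. CCAAT binds the factor NF-Y, TTTGAA is the core of the cell cycle homology region and GGCGGGAA is an E2F-like motif. Of the first 250 bases of all RefSeq promoter windows (GRCh38.p14) 32.0% held CCAAT, 13.3% TTTGAA and 2.72% GGCGGGAA, on either strand. In RefSeq windows of 300 bases, which reach 50 bases past the start, 9 of the 10 genes had 15 windows. The TMPO windows overlap and hold the same CCAAT positions, yet each was counted. CCAAT was in 7 of the 15 windows (those of TMPO and 1 each of LMNA, LMNB1, LEMD3, SUN2 and EMD), TTTGAA in 2 (LMNB2 and SUN2) and GGCGGGAA in 1 (LMNA). Of all 35116 windows 34.6%, 15.2% and 3.16% held them. The window of BANF1, also lower at 48 h, held none of these motifs. EMD, SUN2 and LEMD3, with CCAAT, were under 2-fold at 48 h, and LMNA was higher. No LMNA window lies at the main lamin A and C start, so the LMNA matches do not describe that start.

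The siRNA itself was compared with the transcripts of the 10 genes. Its sense strand is printed as DNA, and capitals mark the 7 bases opposite bases 2 to 8 of the antisense strand, the stretch through which an siRNA can pair with other mRNAs.
SAF-A siRNA, sense strand: cctgggaatcgtggcggATATAATa

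The heptamer ATATAAT was found in the most abundant transcript of 2 of the 10 genes, LBR and LEMD3, which is 20.0%, against 21.0% of 11046 genes of at least 300 nt. Neither was at least 2-fold lower with SAF-A siRNA. The most abundant transcripts of LMNB1, TMPO and BANF1 did not hold it. Other transcripts of a gene, such as that of LAP2 beta, were not searched. The part of such pairing in the results was not tested. Only HNRNPU among all the transcripts searched held the whole sense sequence. The exonic matches are shown from GRCh37 with the heptamer, to which the positions refer, in capitals.
LBR (chr1:225590532-225590538, minus strand): ctttactaattATATAATttgaaagcaaa
LBR (chr1:225607468-225607474, minus strand): agcatcagcagATATAATggggagcctga
LEMD3 (chr12:65641403-65641409, plus strand): aacctgttgatATATAATtgtcagtccaa
LEMD3 (chr12:65641719-65641725, plus strand): aatataaatatATATAATatataaagtaa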

How the data were processed

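Each library has a table of genes and one of transcripts. The authors made the deposited FPKM values with Cufflinks, per the file headers, for each gene and transcript, with 95% bounds and a status for each gene. TopHat2 2.0.10, Bowtie2 2.1.0, Cufflinks 2.2.1, Cuffdiff and build hg19 are named without roles, per the submitters' processing notes. FPKM corrects for transcript length and mapped reads, and RNAs under 300 nt took up 50.9% to 63.8% of all FPKM, so their level bears on every other value.

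Each of the 47338 rows of a table is a RefSeq accession, and 97.1% matched a symbol in RefSeq for GRCh38.p14 (used for names only). FPKM and bounds were summed per symbol, so bounds are conservative. Mapped reads came from coverage divided by FPKM, and estimated reads from FPKM, a fragment length of 200 ± 80 nt and that number. The intervals cover error within a library only. With 1 library per group no test was made. Changes were taken on the log2(FPKM + 1) scale, over genes averaging 1 FPKM or more, and 2-fold is the line. The calculation was tested on simulated data. LMNA transcripts were classed by the GENCODE coding end their exons contain, a definition chosen after the values were seen.

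The named genes are HNRNPU, the 10 members, of each other list the 2 with a mean of at least 5 FPKM that differed most between siRNAs at 48 h, and the 3 nearest to LMNA and to LMNB1. SYNE1 to SYNE3, CBX3, HDAC3, VRK2 and NRM were named after their values were seen, as were VIM, CDH2, FN1 and RPE65. KRT8 and KRT18, which the rule names, had failed estimates in 3 libraries, at 36.8 to 63.9 and 124 to 229 FPKM as listed, and 15.4 and 23.3 FPKM in the SAF-A 48 h library. MITF, also named by the rule, was at 8.90, 5.56, 9.01 and 4.23 FPKM in library order. Members and lists were chosen with earlier results of these data known. Alternatives were a pseudocount of 0.1, no filter or a mean of at least 5 FPKM, TPM, equal sums over genes of at least 300 nt, centring on the median, intervals that must not overlap, a 1.5-fold line, and other definitions of shares and of the lamin ratio. Some sequences of LMNA are not reported here. Analyses used Python 3.11.15 with pandas 2.3.3 and numpy 2.4.6.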

Additional observations from a re-analysis of the deposited data

How the results depend on the processing

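Of the recounts of members past the line, 35 were within 1.5 times the main one and 1 was not. At 24 h the 1.5-fold line counted 1 in place of 0 (LBR, the failed estimate). No called change of a member reversed. Among recomputed log2 differences with a usable interval 222 stayed within the error of the main value and 6 did not. Every member averages more than 5 FPKM, so using no filter or a mean of at least 5 FPKM could not alter a member. The recounts and differences from those filter settings equal the main ones by construction. They are included among the unchanged results and say nothing about stability. LBR has no usable interval where its SAF-A 24 h estimate enters, and there it ranged from 0.65 to 0.89 for siRNA at 24 h and from -0.59 to -0.16 between the SAF-A libraries. With TPM those 6 included LMNA at -0.23, LMNB1 at -0.59, LMNB2 at -0.03 and TMPO at -0.33 for siRNA at 24 h, and LMNA at 1.55 between the SAF-A libraries. With equal sums LMNA was at 1.09 at 48 h. With shares of estimated reads in place of FPKM, the lamin A share was 42.9%, 50.5%, 41.7% and 19.4% in library order, and the alpha share of TMPO 47.5%, 58.8% and 51.9% in the first 3. Between NM_170707 and NM_005572 alone the lamin A share was 34.3% and 41.7% at 24 h and 17.8% with SAF-A siRNA at 48 h. By the shared transcript end it was 39.0%, 45.4%, 35.8% and 40.5%, which turns the 48 h order through NM_001257374. These 2 definitions, and leaving out failed estimates, were chosen after the data were seen. The lamin ratio against LMNB1 alone was 3.96, 5.14, 3.53 and 32.5. Depth limits every 48 h value under SAF-A siRNA, and of the members BANF1 (about 7 reads), EMD (29) and LEMD3 (37) have the fewest reads there. No paired analysis was possible because each group has 1 library and the labels give no replicate numbers.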
